A study of Drosophila melanogaster with 12 samples.

Results

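Arc1, Arc2, Hr38, sr, kay, Jra, cbt and puc were followed in RNA of Drosophila melanogaster heads, brain included, as the sums of their transcripts in a table of 17816 genes. These 8 genes were chosen by name, as genes known from neurons and other cells to respond to activity or stress, and all 8 were found in the table. The knockdown flies carried UAS-dicer2, the tim(UAS)-Gal4 driver and a UAS-dppil4 RNAi hairpin against CG5808, 1 copy of each. The control flies carried the same driver and UAS-dicer2 but no hairpin, so both genotypes expressed dicer2 and Gal4. The driver acts in cells with a molecular clock, while whole heads also hold many cells without it. Flies were kept in 12 h of light and 12 h of dark and were collected on day 4. ZT gives the hours since lights on, so ZT16 falls in the dark phase and ZT8 in the light phase. The 12 libraries were 3 each of knockdown at ZT16, control at ZT16, knockdown at ZT8 and control at ZT8. The labels do not say whether the 3 libraries of a group came from separate batches of flies, so the p-values measure the spread between these libraries, which may be technical.

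Activity-regulated genes are switched on within minutes to hours after a neuron fires, when calcium and cAMP signals reach transcription factors such as CREB. Arc1 and Arc2 encode proteins related to the Gag protein of retrotransposons. Arc1 protein forms capsids that carry its own mRNA across the fly neuromuscular synapse. Hr38, a nuclear receptor of the NR4A family, and sr, a zinc finger factor of the Egr family, are used as markers of recently active neurons in insects. The fly Fos protein, made by kay, and the fly Jun protein, made by Jra, together form the factor AP-1. The Jun kinase (JNK) pathway acts through AP-1 and induces puc, a phosphatase that shuts the kinase off again. The zinc finger factor made by cbt is related to mammalian Klf10 and is known as a target of the clock and of sugar.

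Total estimated counts were 25844821 to 31848667 per library at ZT16 and 36885481 to 37676778 at ZT8, so every ZT8 library was deeper than every ZT16 library. Time of collection and depth can therefore not be told apart. Ribosomal RNA took 2.58% to 9.73% of the counts. The targeted gene CG5808 had 4.46, 4.08 and 3.71 CPM in knockdown libraries at ZT16, against 6.17, 5.86 and 5.16 CPM in control libraries (log2 fold change -0.49, adjusted p = 0.0427). At ZT8 it had 4.34, 2.91 and 4.49 CPM in knockdown, against 4.91, 4.81 and 4.93 CPM in control, and the change did not pass the test (log2 fold change -0.32, adjusted p = 0.188). CPM is the gene's count scaled to a library size of 1e+06, after correction of library sizes, and edgeR's quasi-likelihood test was used with an adjusted p under 0.05 as the threshold for all calls. Markers of neurons, glia, photoreceptors, fat body, muscle and blood cells were above 0 in all 12 libraries. Control ZT16 replicate 1 stood apart in gut and ovary markers, at 902.5 and 297.5 summed CPM, against medians of 0.040 and 0.189 in the other 11 libraries. The other control ZT16 libraries also had gut markers (16.1 and 0.820 CPM) above every library of the other groups (at most 0.0751 CPM). Their ovary markers were at 5.25 and 0.342 CPM, against at most 0.339 CPM in the other groups. Leaving out replicate 1 thus does not clear these markers from the control ZT16 group. All fits were repeated without control ZT16 replicate 1, and the calls described here that changed are given. List counts that moved by 1 gene are not repeated in each case. Without it, the fall of CG5808 at ZT16 was -0.43 and did not pass (adjusted p = 0.110).

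On a scale that corrects for transcript length (TPM), the 8 genes spanned a wide range of levels. In control heads at ZT16 the order was Arc1 (257 ± 18.2 TPM, SD, n = 3), kay (89.7 ± 9.63), cbt (82.8 ± 3.64), Jra (44.4 ± 1.35), puc (38.3 ± 2.01), Arc2 (10.7 ± 1.75), sr (4.67 ± 0.780) and Hr38 (2.72 ± 0.703). In that group the libraries of kay and cbt overlapped, while the lowest sr library (3.88 TPM) lay just above the highest Hr38 library (3.50 TPM). In knockdown heads at ZT16, Arc1 (58.6 to 75.9 TPM) lay below kay (82.0 to 93.6 TPM), and its highest library passed the lowest of cbt (75.8 to 82.8 TPM). At ZT8 Arc1 was the highest of the 8 in both genotypes, with 141 ± 8.83 TPM in knockdown and 222 ± 26.5 TPM in control. Reads per library ran from 2388 to 13313 for Arc1, but only from 77 to 223 for Arc2, which sets how finely Arc2 could be measured.

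**Figure D1:**
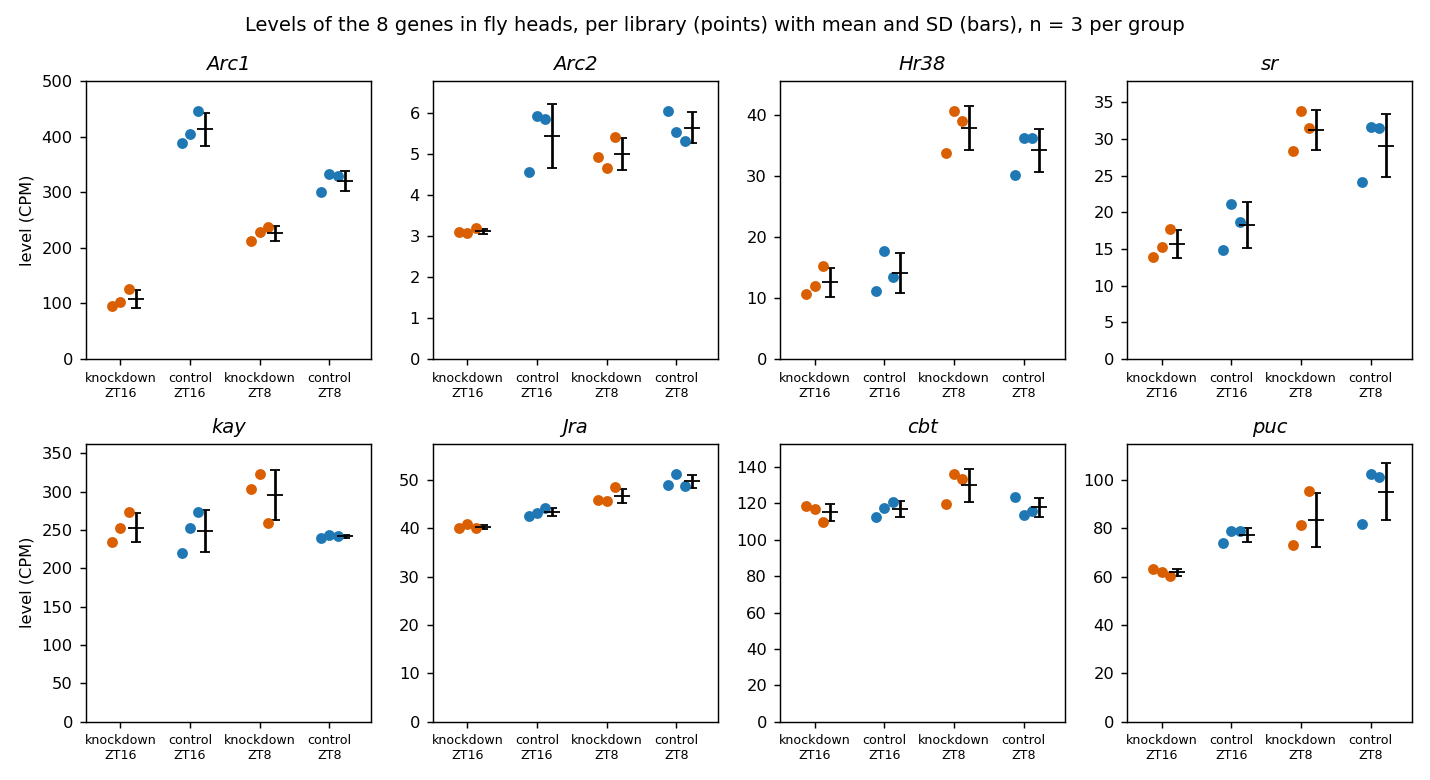
Level of each of the 8 genes in CPM (y axis, from 0) in knockdown and control libraries at ZT16 and ZT8 (x axis), as points with the mean and SD of 3 libraries beside them. The knockdown and control points of Arc1 do not overlap at either time, while those of Hr38 and sr overlap between genotypes at each time and are lower at ZT16 than at ZT8.

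Arc1 was lower in knockdown heads at both times, and by far more in the dark phase. At ZT16 it had 96, 103 and 126 CPM in the knockdown libraries, against 389, 405 and 447 CPM in the control libraries. The highest knockdown library thus stayed far below the lowest control library. The log2 fold change was -1.93 ± 0.097 (standard error, n = 3 per group), which leaves 0.262 of the control level, with an adjusted p of 4.35e-07 from edgeR. This was the 7th smallest p of the 10717 genes tested. At ZT8 Arc1 had 212, 228 and 238 CPM in knockdown, against 300.1, 333 and 330 CPM in control. The groups again did not overlap, and the fall was smaller (log2 fold change -0.51 ± 0.093, adjusted p = 0.00487 from edgeR). The difference between the effects, ZT16 minus ZT8, was -1.42 ± 0.13 on the log2 scale (adjusted p = 0.000871 from edgeR), the 3rd smallest p of all genes in that test. Both falls and their difference passed in every alternative fit of the gene sums that was run. In the fit of single transcripts, which tests more features, the fall of the only Arc1 transcript at ZT8 (adjusted p = 0.0221) was lost without knockdown ZT8 replicate 1 (0.0771) or 2 (0.0675) and without control ZT8 replicate 2 (0.0883) or 3 (0.0797). In bulk heads, fewer cells of a type and less RNA per cell cannot be told apart.

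The sign of the Arc1 change with time differed between the genotypes. In knockdown heads Arc1 was lower at ZT16 than at ZT8 (108 ± 15.7 against 226 ± 13.2 CPM, SD, n = 3; log2 fold change -1.06 ± 0.095, adjusted p = 1.91e-05 from edgeR). In control heads it was higher at ZT16 than at ZT8 (414 ± 30.0 against 321 ± 18.3 CPM; log2 fold change 0.37 ± 0.093, adjusted p = 0.0154 from edgeR). In both genotypes the ZT16 and ZT8 libraries did not overlap. The rise in control is the less firm of these: without control ZT16 replicate 3 its adjusted p was 0.0609, and on TPM it was 0.158. Without control ZT16 replicate 1 the rise was 0.41 (adjusted p = 0.0203).

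Arc2, the neighbour and relative of Arc1, was also lower in knockdown at ZT16. At ZT16 it had 3.10, 3.06 and 3.18 CPM in knockdown, against 4.54, 5.93 and 5.84 CPM in control. The 3 knockdown libraries lay close together and below all control libraries (log2 fold change -0.80 ± 0.12, adjusted p = 0.00115 from edgeR). At ZT8 it had 4.93, 4.65 and 5.40 CPM in knockdown, against 6.04, 5.54 and 5.31 CPM in control. There the groups overlapped and the change did not pass (log2 fold change -0.17 ± 0.12, adjusted p = 0.358 from edgeR). The difference between the 2 effects was -0.63 ± 0.17 and did not pass either (adjusted p = 0.0599). It passed without control ZT16 replicate 1 (0.0251), the library that stands apart in gut and ovary markers, and without control ZT8 replicate 1 (0.0391). With time, Arc2 was lower at ZT16 than at ZT8 in knockdown (log2 fold change -0.68 ± 0.12, adjusted p = 0.00224 from edgeR), and did not pass in control (log2 fold change -0.05 ± 0.12, adjusted p = 0.795).

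The number of Arc1 reads for each Arc2 read was lower in knockdown as well. There were 31.0, 33.7 and 39.6 in knockdown libraries at ZT16, against 85.5, 68.3 and 76.5 in control libraries. At ZT8 there were 43.0, 49.0 and 44.1 in knockdown, against 49.7, 60.2 and 62.1 in control. The ratios did not overlap between genotypes at either time, and no test of them was made. Without control ZT16 replicate 1, the fall at ZT16 was -1.97 on the log2 scale for Arc1 (adjusted p = 1.05e-06) and -0.92 for Arc2 (adjusted p = 0.000368), both from edgeR.

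The Arc genes stand side by side on chromosome 2R (all positions are in dm6). Arc1 spans 14357927 to 14360297 on the minus strand and Arc2 14361924 to 14362825 on the plus strand, each with 1 annotated transcript. CR10102 lies between them, 135 bases from Arc1 and 143 bases from Arc2, CG8617 lies 645 bases beyond the end of Arc1, and Tfb1, which encodes a subunit of the general transcription factor TFIIH, lies 222 bases beyond Arc2. CG8617 had 19.9, 19.5 and 19.5 CPM in knockdown at ZT16, against 19.2, 19.5 and 17.7 CPM in control, and did not pass the test (log2 fold change 0.06, adjusted p = 0.534). Tfb1 had 26.7, 28.2 and 26.1 CPM in knockdown at ZT16, against 34.3, 32.0 and 31.8 CPM in control, and fell by 0.28 on the log2 scale (adjusted p = 0.00602 from edgeR). CR10102 had few reads, with 0 to 0.221 CPM in the knockdown libraries and 0.200 to 0.512 CPM in the control libraries. Its fall passed when ZT16 and ZT8 were averaged (-1.92 on the log2 scale, adjusted p = 0.0281), but not at ZT16 (adjusted p = 0.090) or ZT8 (adjusted p = 0.173) alone.

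**Figure D2:**
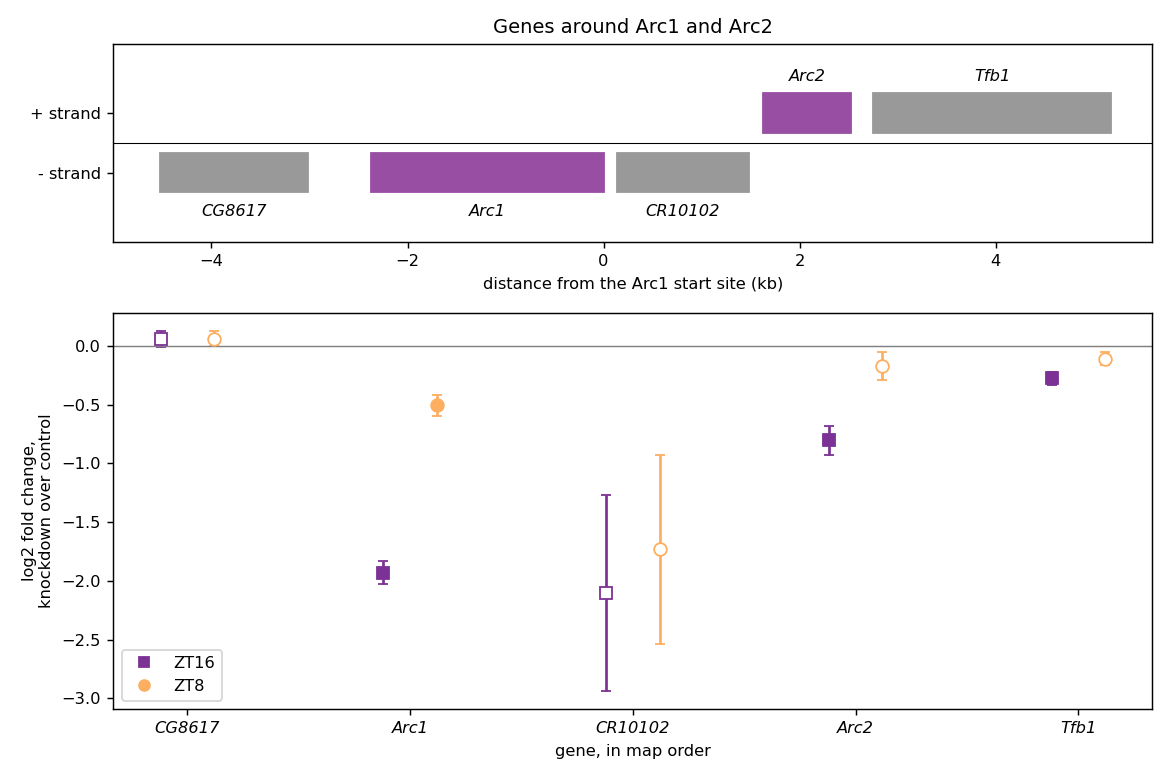
Top, the genes around Arc1 and Arc2 by distance from the Arc1 start site in kb (x axis) and strand (y axis). Bottom, log2 fold change of knockdown over control with its standard error (y axis) for each gene in map order (x axis) at ZT16 (squares) and ZT8 (circles), n = 3 per group; filled symbols passed the test. Arc1 and Arc2 are at -1.93 and -0.80 at ZT16, while CG8617 on one side is at 0.06 and Tfb1 on the other at -0.28.

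Hr38 and sr, the transcription factors used as neural activity markers, did not pass the test by genotype at either time, but both were lower in the dark phase, whose libraries were also the shallower ones. Hr38 (chromosome 2L, 20683462 to 20714588) had 10.6, 12.0 and 15.2 CPM in knockdown at ZT16, against 11.1, 17.7 and 13.4 CPM in control. In the light phase, at ZT8, Hr38 had 33.7, 40.6 and 38.9 CPM in knockdown, against 30.1, 36.2 and 36.3 CPM in control. The genotypes overlapped at both times, and no ZT16 library reached any ZT8 library. The knockdown effect was -0.16 ± 0.18 at ZT16 (adjusted p = 0.562) and 0.14 ± 0.17 at ZT8 (adjusted p = 0.613) on the log2 scale, both from edgeR. ZT16 against ZT8 gave -1.58 ± 0.17 in knockdown (adjusted p = 0.000157) and -1.28 ± 0.17 in control (adjusted p = 0.000649), both from edgeR.

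The Egr-family gene sr (chromosome 3R, 18090803 to 18135583) followed Hr38. It had 13.9, 15.3 and 17.8 CPM in knockdown at ZT16, against 14.9, 21.2 and 18.7 CPM in control. Its ZT8 levels were 28.4, 33.9 and 31.5 CPM in knockdown, against 24.1, 31.6 and 31.5 CPM in control. The genotypes overlapped at both times and the times did not overlap in either genotype. ZT16 against ZT8 gave -0.99 ± 0.15 in knockdown (adjusted p = 0.000804) and -0.67 ± 0.14 in control (adjusted p = 0.0074), both from edgeR. The knockdown effect did not pass at ZT16 (log2 fold change -0.22 ± 0.15, adjusted p = 0.314) or at ZT8 (0.10 ± 0.14, adjusted p = 0.675). The falls of Hr38 and sr with time passed in all 22 alternatives in both genotypes. Without control ZT16 replicate 1, those in control were -1.14 for Hr38 and -0.55 for sr.

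Hr38 and sr also varied together from library to library. Their log2 levels had a Pearson r of 0.984 over the 12 libraries, and of 0.945 after the mean of each group was taken out. For the other 27 pairs of the 8 genes, r ran from -0.107 to 0.921 over the libraries and from -0.255 to 0.705 around the group means. Arc1 and Arc2 had an r of 0.905 over the libraries but of 0.265 around the group means, and Arc1 and sr had 0.385 and 0.705. These coefficients are descriptions. The libraries share groups, depth and scaling, and Arc2 has few reads.

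Neither AP-1 gene passed by genotype at a single time. The Fos gene kay (chromosome 3R, 29765995 to 29794113) had 234, 252 and 273 CPM in knockdown at ZT16, against 219, 253 and 273 CPM in control, with the groups overlapping (log2 fold change 0.03 ± 0.092, adjusted p = 0.861). At ZT8 it had 304, 324 and 259 CPM in knockdown, against 239.6, 243 and 243 CPM in control. There all knockdown libraries lay above all control libraries, and the difference of 0.29 ± 0.092 on the log2 scale just missed the threshold (adjusted p = 0.0541 from edgeR). It passed without knockdown ZT8 replicate 3, the lowest of that group (0.0131), without control ZT16 replicate 1 (0.0268) and with DESeq2 (0.0267). On TPM the log2 fold change was as low as 0.09 and did not pass. Averaged over both times kay did not pass (0.16 ± 0.065, adjusted p = 0.0907), but did once control ZT16 replicate 3 (0.0491) or knockdown ZT8 replicate 3 (0.021) was left out. The Jun gene Jra (chromosome 2R, 10096480 to 10098556) had 40.0, 40.8 and 40.1 CPM in knockdown at ZT16, against 42.6, 43.1 and 44.1 CPM in control. At ZT8 Jra had 45.9, 45.7 and 48.4 CPM in knockdown, against 49.0, 51.3 and 48.8 CPM in control.

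Jra was thus lower in every knockdown library than in every control library of the same time, by a small amount. Neither time passed alone (adjusted p = 0.104 at ZT16 and 0.176 at ZT8). The mean over both times passed (log2 fold change -0.10 ± 0.030, adjusted p = 0.0318 from edgeR), but held in only 9 of 21 alternatives, with adjusted p up to 0.102 (without control ZT8 replicate 2 or without knockdown ZT16 replicate 1). When single libraries were left out, it held for 3 of the 12, namely control ZT16 replicate 1, control ZT8 replicate 1 and knockdown ZT8 replicate 3. On log2(TPM + 0.1) the fall at ZT8 passed on its own (-0.23, adjusted p = 0.030 from limma). The median of all genes was -0.14 on that scale, against -0.01 in the main fit. Jra was also lower at ZT16 than at ZT8, by 0.21 in knockdown (log2 fold change -0.21 ± 0.043, adjusted p = 0.00453) and in control by nearly as much (log2 fold change -0.20 ± 0.043, adjusted p = 0.00635), both from edgeR. With replicate number added to the fit, the comparison of times rested on the fitted level of replicate 1 at each time. Neither call passed there (adjusted p = 0.115 in knockdown and 0.139 in control, both from edgeR), but that is not a test of the same means. The change of kay with time did not pass in knockdown (-0.22 ± 0.092, adjusted p = 0.104, or -0.32 and 0.027 without knockdown ZT8 replicate 3) or in control (0.04 ± 0.092, adjusted p = 0.792).

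The JNK phosphatase gene puc (chromosome 3R, 8105332 to 8122294) was lower in knockdown at ZT16. It had 63.0, 61.9 and 60.3 CPM in knockdown, against 73.8, 78.8 and 78.7 CPM in control, with no overlap (log2 fold change -0.32 ± 0.099, adjusted p = 0.0399 from edgeR). This call is near the threshold and held in 11 of 22 alternatives, with adjusted p between 0.00116 and 0.117. It was lost without any 1 of the 3 knockdown ZT16 libraries (0.107 to 0.117), any 1 of the 3 control ZT16 libraries (0.0633 to 0.0952) or knockdown ZT8 replicate 2 (0.0668). At ZT8 puc had 73.2, 81.2 and 95.3 CPM in knockdown, against 81.7, 102.6 and 101.1 CPM in control, and the change did not pass (log2 fold change -0.19 ± 0.098, adjusted p = 0.214), though it did without knockdown ZT8 replicate 3 (0.0488) or control ZT8 replicate 1 (0.0271). Averaged over both times the fall was 0.26 on the log2 scale (log2 fold change -0.26 ± 0.070, adjusted p = 0.0179), lost without control ZT8 replicate 2 (0.0522) or 3 (0.0518). With time puc was lower at ZT16 in knockdown (log2 fold change -0.43 ± 0.099, adjusted p = 0.0094) and, less firmly, in control (log2 fold change -0.30 ± 0.099, adjusted p = 0.0455, held in 10 of 22 alternatives). The call in knockdown did not pass when replicate number was added to the fit (adjusted p = 0.0996 from edgeR), but that fit compared the replicate 1 levels of the times. The call in control was lost without control ZT8 replicate 2 or 3 (0.151 and 0.140), without any control ZT16 library (0.0724 to 0.133) and without any knockdown ZT16 library (0.0517 to 0.0689).

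The Klf10 relative cbt (chromosome 2L, 476446 to 479688) did not pass by genotype at either time. It had 118.5, 117 and 109.9 CPM in knockdown at ZT16, against 112, 117 and 121 CPM in control (log2 fold change -0.02 ± 0.057, adjusted p = 0.819). At ZT8 it had 119.7, 136 and 134 CPM in knockdown, against 124, 114 and 116 CPM in control (log2 fold change 0.14 ± 0.057, adjusted p = 0.115, or 0.0491 without knockdown ZT8 replicate 1). The groups overlapped at both times. Its fall with time in knockdown (-0.17 ± 0.057, adjusted p = 0.047) held in only 7 of 22 alternatives. Of the 12 libraries left out one at a time, 9 took the call away (adjusted p from 0.0564 to 0.166), all but knockdown ZT8 replicate 1, control ZT8 replicate 1 and control ZT16 replicate 1. The change in control did not pass (-0.01 ± 0.057, adjusted p = 0.914).

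**Figure D3:**
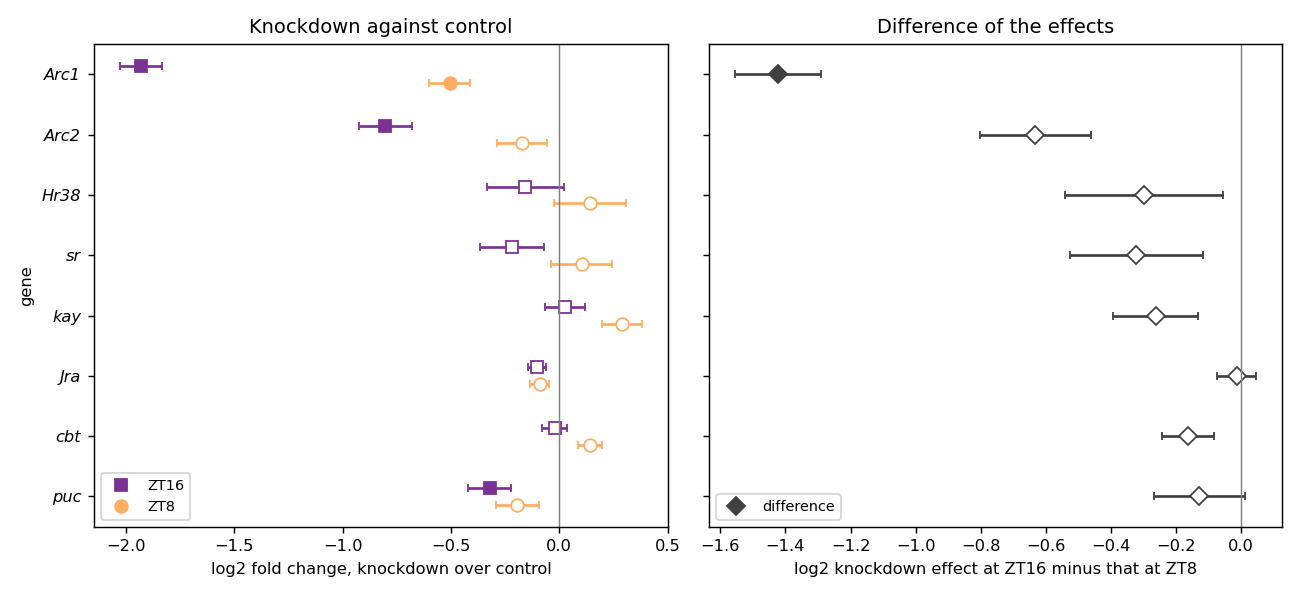
Left, log2 fold change of knockdown over control (x axis) for the 8 genes (y axis) at ZT16 (squares) and ZT8 (circles). Right, the difference of these effects, ZT16 minus ZT8 (x axis, log2). Bars are standard errors, n = 3 per group, and filled symbols passed the test. Arc1 is the only gene of the 8 with a filled symbol at both times and the only one whose difference, -1.42, passed.

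Counted together, 3 of the 8 genes fell in knockdown at ZT16 (Arc1, Arc2 and puc) and 0 rose, where 22.2% of all tested genes were called, 11.2% up and 11% down. Without control ZT16 replicate 1, only Arc1 and Arc2 of the 8 fell there. At ZT8 1 fell (Arc1) and 0 rose, where 15.6% of all genes were called, 8.84% up and 6.76% down. Averaged over ZT16 and ZT8, 4 fell and 0 rose, where 28.8% were called, 14.7% up and 14.1% down. In the difference between the times 1 passed, with a larger fall at ZT16, where 4.18% of all genes passed, 2.67% positive and 1.51% negative. The median log2 fold change of the 8 was -0.19 at ZT16, against -0.02 over all tested genes, and 0.01 at ZT8, against -0.01. Groups did not overlap for 4 of the 8 genes at ZT16 and 3 at ZT8, where 43.8% and 31.6% of all genes did not. With time, 7 of 8 were lower at ZT16 in knockdown, where 23.2% of all genes were called, 11.8% up and 11.4% down. In control 4 were lower and 1 higher, where 23.7% were called, 12% up and 11.8% down. The times did not overlap for 7 of the 8 genes in knockdown and 5 in control, where 44.2% and 38.4% of all genes did not. The median with time was -0.56 in knockdown, against -0.01 over all genes, and -0.12 in control, against 0.02. The knockdown groups serve in both kinds of comparison, so these counts are not independent.

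The deposited table is per transcript, and most of the 8 genes have a leading variant. Of 22 transcripts, 20 passed the filter on low counts. Hr38 variant D held a mean of 75.1% to 78.5% of the gene's reads in the 4 groups, sr variant E 60.9% to 66.7%, cbt variant A 89.9% to 92.0% and puc variant A 98.9% to 99.3%. Variant D of Hr38 was lower at ZT16 than at ZT8 (log2 fold change -1.65 in knockdown, adjusted p = 0.00235, and -1.28 in control, adjusted p = 0.00946). Variant B did not pass, at -1.40 ± 0.55 in knockdown (adjusted p = 0.141) and -1.23 ± 0.55 in control (adjusted p = 0.200). Without control ZT16 replicate 1, its fall in knockdown passed (-1.40 ± 0.38, adjusted p = 0.0454 from edgeR). Variants A and D of sr, and A and C of Jra, hold equal values in every library, so they were not told apart by the authors' estimates. The transcripts called were 2 of 20 at ZT16 and 1 of 20 at ZT8, all from Arc1 and Arc2, where 6.49% and 5.51% of all transcripts were called. With time 8 were lower in knockdown, and in control 3 were lower and 1 higher, where 11.7% and 10.6% were called. Variants A and C of Jra count as 2 of the lower calls in each genotype, though they hold 1 estimate. The 20 tested also hold the equal pair of sr. Without control ZT16 replicate 1, the calls in control of Jra variants A and C (adjusted p = 0.108) and Arc1 (0.0608) were lost. So was that of sr variant C in knockdown (0.0507, all from edgeR).

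For kay, which has several start sites, the most abundant variant, F, is given in full. Variant F starts at 29788936, downstream of the starts of variants D (29765995), A (29772892) and B (29782609). At ZT8 variant F had 176, 198 and 136 CPM in knockdown, against 118, 107 and 112 CPM in control, with no overlap. That was 57.0 ± 4.40% of kay reads in knockdown and 46.6 ± 2.62% in control (SD, n = 3). The change of 0.60 ± 0.15 on the log2 scale just missed the threshold (adjusted p = 0.0520 from edgeR) and passed once control ZT16 replicate 1 (0.0400) or knockdown ZT8 replicate 3 (0.0190) was left out. At ZT16 variant F held 56.6 ± 1.53% in knockdown and 52.3 ± 3.18% in control, with levels that overlapped (130, 141 and 159 CPM in knockdown, 109, 132 and 153 CPM in control). Variants A and B did not pass at either time. The rare variant D had 0.480, 0.681 and 0.818 CPM in knockdown at ZT16, against 2.11, 1.81 and 1.58 CPM in control, and did not pass (log2 fold change -1.47 ± 0.44, adjusted p = 0.0801, or 0.0468 without knockdown ZT8 replicate 3). No test of the shares themselves was made.

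**Figure D4:**
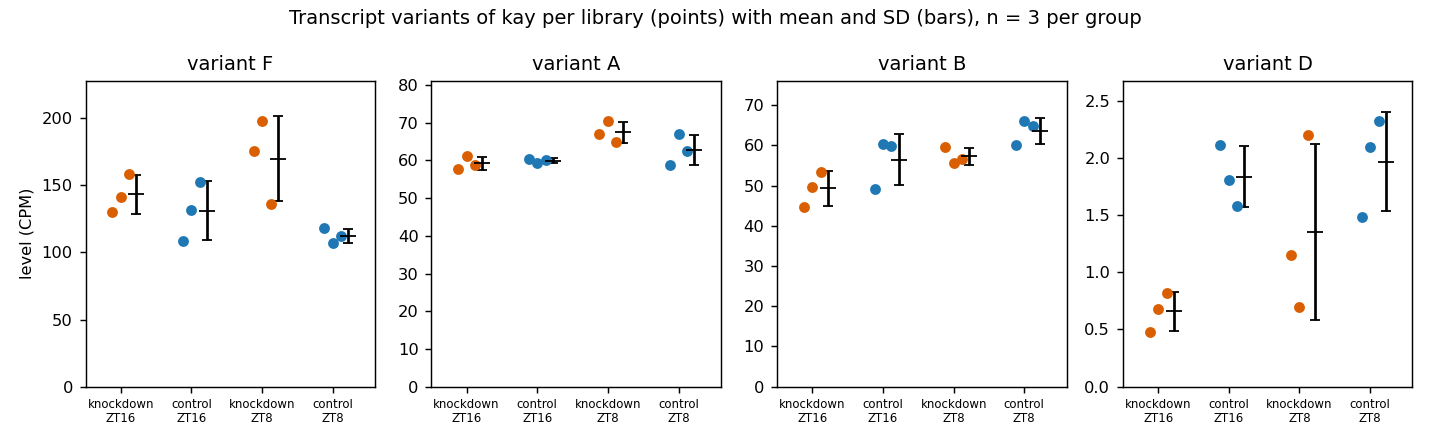
Level of 4 transcript variants of kay in CPM (y axis, from 0) in each library (points) of knockdown and control at ZT16 and ZT8 (x axis), with the mean and SD of 3 libraries. At ZT8 the 3 knockdown points of variant F (136 to 198 CPM) lie above the 3 control points (107 to 118 CPM), while those of variant B lie at 55.5 to 59.5 CPM in knockdown and 60.0 to 66.1 CPM in control.

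Several of the 8 genes overlap others, and no source used here says whether reads were counted by strand. Most overlapping genes had few reads. In the span of Hr38, CG2617 had 1.81 to 2.95 CPM. In that of kay, fig had 0.025 to 0.137 CPM, and in that of puc, lncRNA:CR44331 had 0.205 to 0.567 CPM. The gene cbt lies wholly inside ush, on the other strand, and ush had 19.7 to 28.3 CPM, so cbt counts could hold some reads of ush. RpLP0-like, at 15.1 to 20.8 CPM, overlaps Jra.

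Most other genes proposed as activity-regulated were also lower at ZT16 than at ZT8. Of 10 such candidates, 8 were lower and 1 higher at ZT16 than at ZT8 in knockdown, and 7 were lower and 0 higher in control. Over all tested genes, 23.2% were called in knockdown, 11.4% lower, and 23.7% in control, 11.8% lower. Without control ZT16 replicate 1, 6 were lower in control. The median log2 fold change was -0.41 in knockdown and -0.35 in control, against -0.01 and 0.02 over all tested genes. CG14186 had 88.7, 87.3 and 94.6 CPM in knockdown at ZT16, against 196, 197 and 182 CPM in knockdown at ZT8 (log2 fold change -1.08 ± 0.083, adjusted p = 5.28e-06 from edgeR). In control it had 107, 135 and 121 CPM at ZT16, against 194, 226 and 222 CPM at ZT8 (-0.82 ± 0.082, adjusted p = 5.15e-05). CG46385 fell too, by 0.88 in knockdown (log2 fold change -0.88, adjusted p = 2.76e-06) and less in control (-0.61, adjusted p = 5.05e-05). The exception was CG13868, which was higher at ZT16 in knockdown (0.52 ± 0.13, adjusted p = 0.0177).

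By genotype the same 10 candidates split. At ZT16, 3 fell in knockdown (CG14186 by 0.42, CG46385 by 0.30 and CG13055 by 0.43 on the log2 scale) and 1 rose. The one that rose was meng, which encodes a protein kinase, at 19.8, 19.7 and 18.5 CPM in knockdown, against 15.6, 15.3 and 15.7 CPM in control (log2 fold change 0.32 ± 0.051, adjusted p = 0.00152). At ZT8 meng rose as well (0.26 ± 0.049, adjusted p = 0.00479), and none of the other 9 passed. None of the 10 passed in the difference between the times, where edgeR gave unadjusted p under 0.05 for CG46385 and CG14186.

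**Figure D5:**
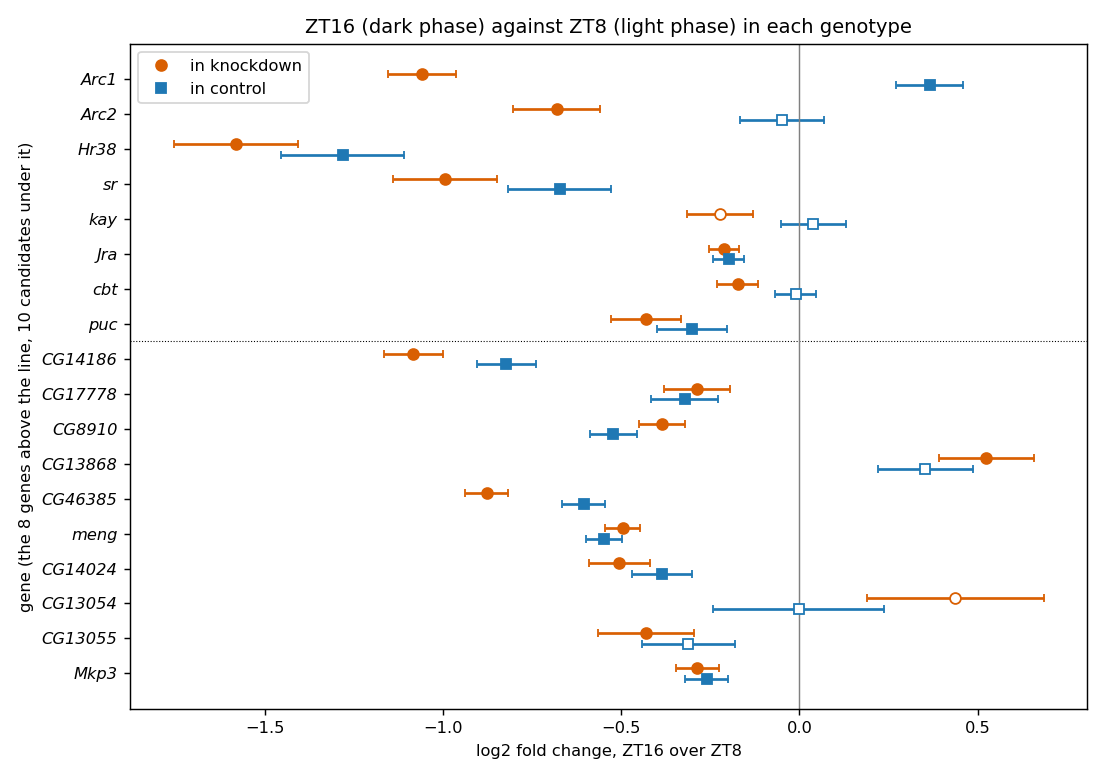
Log2 fold change of ZT16 over ZT8 (x axis) for the 8 genes and 10 candidate activity-regulated genes (y axis), in knockdown (circles) and control (squares), with standard errors, n = 3 per group; filled symbols passed the test. Most symbols lie left of 0 in both genotypes, and Arc1 is the only gene with filled symbols on both sides, at -1.06 in knockdown and 0.37 in control.

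Of 18 tested genes of the JNK and p38 kinase cascades, 5 fell and 2 rose in knockdown at ZT16, where 22.2% of all genes were called, and 4 fell and 0 rose at ZT8, where 15.6% were. Without control ZT16 replicate 1 the counts at ZT16 were 3 and 1. At ZT16 the genes that fell included Tab2, an adaptor of the kinase Tak1 (log2 fold change -0.45 ± 0.046), raw, a brake on JNK signalling (-0.40 ± 0.051), and Mekk1, a kinase upstream of p38 (-0.45 ± 0.063), while bsk, the JNK gene itself, rose (0.35 ± 0.054, adjusted p = 0.00113). The median was -0.10 at ZT16, against -0.02 over all genes. Of 14 tested genes listed as AP-1 or JNK targets, 4 fell and 0 rose at ZT16, and 3 fell and 1 rose at ZT8, against the same 22.2% and 15.6% of all genes called. The largest of these was Gadd45, a stress gene, with 14.1, 15.2 and 17.1 CPM in knockdown at ZT16, against 26.7, 30.4 and 27.6 CPM in control (log2 fold change -0.87 ± 0.098, adjusted p = 0.000186 from edgeR). Its groups did not overlap at ZT8 either (-0.65 ± 0.096, adjusted p = 0.00143). Atf3, a bZIP factor that can pair with Jun, fell by 0.18 at ZT16 (adjusted p = 0.0274), as did Ets21C, an ETS factor, by 0.71 (adjusted p = 0.0397, or 0.0818 without control ZT16 replicate 1).

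Genes of calcium, cAMP and CREB signalling, which act upstream of activity-regulated genes, were called about as often as all genes. Of 26 genes, 6 rose and 1 fell in knockdown at ZT16, where 22.2% of all genes were called, and 1 rose and 4 fell at ZT8, where 15.6% were. The NMDA receptor genes Nmdar2 (log2 fold change 0.27 ± 0.053, adjusted p = 0.00489) and Nmdar1 (0.19 ± 0.045, adjusted p = 0.0116) rose at ZT16, as did CaMKII, a calcium-dependent kinase (0.29 ± 0.071, adjusted p = 0.013). CaMKII was lower in knockdown at ZT8 (-0.24 ± 0.071, adjusted p = 0.0424), and the difference between the times passed (0.53 ± 0.0998, adjusted p = 0.0234). The ERK gene rl fell at both times, by 0.33 at ZT16 and by 0.57 at ZT8. Of 18 tested relatives of the nuclear receptor and zinc finger members, 3 rose and 0 fell at ZT16, Eip78C by most (0.69 ± 0.063, adjusted p = 3.72e-05), and 2 rose and 1 fell at ZT8, which is no more than the 22.2% and near the 15.6% of all genes called.

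Markers of some cell types in the head moved with genotype and time as well. Summed over 6 neuron markers, the level was 3416 to 3719 CPM in knockdown at ZT16, against 3101 to 3355 CPM in control, and 3316 to 3541 CPM in knockdown at ZT8, against 3724 to 4058 CPM in control. Of these 6 genes, 2 rose at ZT16 (1 without control ZT16 replicate 1) and 4 fell at ZT8. Over all tested genes, 22.2% were called by genotype at ZT16 and 15.6% at ZT8, the shares to set beside each marker count here. Photoreceptor markers were lower in knockdown at ZT16 (36840 to 39520 CPM, against 43300 to 47360 CPM in control) and at ZT8 (38940 to 40220 CPM, against 46070 to 49240 CPM). Of 6, 3 fell at each time. Muscle markers were higher in knockdown, with 6 of 7 rising at each time (4409 to 4929 CPM at ZT16, against 3425 to 3662 CPM in control). Glia markers rose in 1 of 6 at ZT16 (0 without control ZT16 replicate 1) and 0 of 6 at ZT8, fat body markers in 0 and 3 of 6, and blood cell markers in 0 of 5 at either time. The part of these shifts in the changes of Arc1 and the other 7 genes was not tested.

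The genes whose levels over the 12 libraries were most like those of Arc1, among 8261 genes with a mean of at least 5 CPM, were Lk6 (Pearson r 0.957), CG5004 (0.956), Rbf (0.949), CG10916 (0.943) and CG1572 (0.942). Lk6, a kinase of the translation factor eIF4E, averaged 1653 CPM in knockdown and 2286 CPM in control at ZT16, and 1947 CPM in knockdown and 2232 CPM in control at ZT8. It fell at ZT16 (log2 fold change -0.47 ± 0.068, adjusted p = 0.000833 from edgeR). For Arc2 the nearest were cathD, a lysosomal protease (0.955), Pino (0.955) and CG10916 (0.946). After each other, Hr38 was most like CG16798 (0.980) and RasGAP1 (0.978), and sr most like CG9336 (0.977) and wat (0.976). The nearest to kay were sqa (0.966), CG4461 (0.961) and CG11044 (0.960), and the nearest to Jra were CG5191 (0.988), CG17111 (0.976) and CG5346 (0.974). For puc they were lncRNA:noe (0.974), CG14621 (0.971) and CG1124 (0.968), while cbt had no gene above 0.877 (CG1628). These are descriptions over libraries that share groups and depth.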

How the data were processed

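RNA of fly heads was sequenced from TruSeq Stranded mRNA libraries, per the labels' protocols. Reads were aligned with STAR 2.6.0c to dm6 and quantified with RSEM 1.3.1, per the submitters' processing notes. The deposited table gives, for 35536 transcripts, expected counts as whole numbers, FPKM and TPM, all made by the authors. FPKM was not used beyond a check of its unit. The annotation release and the strand setting were not given in the sources used here. Columns were matched to samples by the library names in the labels. Control ZT16 column names differ from the library names by a digit, so these were matched by time and number.

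Expected counts were summed per gene and fitted with edgeR 4.0.16 in R 4.3.3, with TMM factors, filterByExpr at a minimum count of 10 and the robust quasi-likelihood F test on 4 group means over 12 libraries (8 residual degrees of freedom). The fit tested 10717 genes, and p-values were adjusted by Benjamini and Hochberg over all of them. The standard error is the absolute log2 fold change over the square root of F. Transcripts were fitted in the same way (23013 tested). TPM served for levels between genes, and in limma 3.58.1 on log2(TPM + 0.1) or log2(TPM + 1). The other alternatives were DESeq2 1.42.0, limma-voom, other size factors, no filter, rRNA left out, single libraries left out (for genes outside the 8 and list counts only control ZT16 replicate 1, chosen after seeing the data), only the 6 libraries compared, and a block of replicate numbers. The fit was also run on simulated counts, whose outcome is not given here and on which no result rests.

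The genes named are the 8 members, CG5808, neighbours and overlapping genes, the genes most like a member, and from each list up to 4 called genes by p and up to 2 others by level, some of which are left out for length. The 8 genes, the lists and the rule were chosen with earlier results of these data known. The coordinates are those of the deposited table, and 8 of 8 spans equal those of the annotation used here. Of 136 list genes, 2 were matched by an older name. No batch is named in the labels.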

Additional observations from a re-analysis of the deposited data

Results flagged for a closer look

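The knockdown effect on Arc1 differed between the times of collection. It was -1.93 at ZT16 and -0.51 at ZT8 on the log2 scale, and the difference of -1.42 passed the test of the difference itself (adjusted p = 0.000871 from edgeR's quasi-likelihood test). It passed in all 21 alternatives, with values from -1.55 to -1.33 and adjusted p from 1.5e-20 to 0.0108. The knockdown and control libraries did not overlap at ZT16 or at ZT8.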

How the results depend on the processing

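Of 1040 values of the 8 genes under alternatives, 966 kept their direction and side of the threshold where called, 58 lost a call, 16 gained one and 0 reversed a call. All calls of the Arc1 gene sum held except its rise with time in control, and Arc2 at ZT16 and Hr38 and sr with time held in all alternatives. On log2(TPM + 0.1) the median of all genes shifted to -0.14 at ZT8, -0.11 over both times and -0.11 with time in control. There the genes called higher and lower were 573 and 1760 (against 947 and 724), 862 and 2804 (against 1574 and 1510) and 525 and 2284 (against 1281 and 1261). At ZT16 they were 621 and 1115 (against 1204 and 1175), and with time in knockdown 654 and 1294 (against 1268 and 1220). In the difference between the times, 448 genes were called, against 276 with upper quartile factors, 240 with no filter, 918 with DESeq2, 73 on TPM + 0.1, 78 on TPM + 1 and 170 with the replicate block. Of the 8 genes at ZT8, 2 were called with DESeq2, on either TPM scale and with the block, against 1. With the 6 ZT8 libraries alone 871 genes were called, against 1671. Without a filter 1 transcript of the 8 genes was called with time in control, against 4. The causes were not tested.

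Replicate numbers showed no clear pairing of the samples: deviations from the group means correlated at -0.0995 to 0.273 for equal numbers and at -0.296 to 0.219 for unequal ones. The numbers are those of the sample titles, and at ZT8 most of them differ from the numbers in the library names. With 3 libraries per group, these values cannot exclude a pairing. The block was coded within each time, so its comparisons of ZT16 with ZT8 rested on the fitted level of replicate 1 at each time. They are thus not the main comparison with a block added. Comparisons of knockdown with control do not have this limit. With time, 919 genes and 3 of the 8 were called under the block in control (against 2542 and 5), and 1196 genes in knockdown (against 2488). In this comparison of replicate 1 levels, the calls with time of Jra did not pass in knockdown (adjusted p = 0.115) or control (0.139). Nor did those of puc in knockdown (0.0996) and control (0.401) or of cbt in knockdown (0.323). The block also took away the call of Jra over both times (0.0887, all from edgeR). The block added calls of kay at ZT8 (0.0207) and over both times (0.0331) and, for the replicate 1 levels, with time in knockdown (0.032).

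Leaving out 1 library at a time gave 1309 to 2759 genes at ZT16, 673 to 2735 at ZT8, 2264 to 3728 over both times, 1572 to 2871 with time in knockdown, 1532 to 2810 with time in control and 19 to 1107 in the difference. The fewest in the difference came without knockdown ZT16 replicate 1. Calls among the 8 genes ran from 2 to 3 at ZT16, 1 to 3 at ZT8, 2 to 5 over both times, 6 to 7 with time in knockdown, 3 to 5 with time in control and 1 to 2 in the difference. Transcript calls ran from 2 to 3 at ZT16, 0 to 2 at ZT8, 2 to 5 over both times, 4 to 9 with time in knockdown and 1 to 5 with time in control. Depth limits Arc2 most, with 77 to 223 reads.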
